A study of Mus musculus with 15 samples.

Results

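Within the Tomato+ cells of mouse inguinal white fat, the cells highest in an 18-gene set of committed preadipocyte genes were compared with the cells lowest in it. The mean of the 18 genes was taken in each of the 15 sequenced cells, the 5 highest and the 5 lowest formed the sets compared, and the other 5 are given as middle cells, so that 10 of 15 cells entered the comparison. All cells came from adult C57BL/6 mice of the genotype Prrx1-CreERT;Tomato, which carry a tamoxifen-activated Cre recombinase driven by Prrx1 and a Tomato reporter, and all mice had received tamoxifen at 2 mg per 30 g of body weight daily for 3 days. Inguinal fat was digested with collagenase for 1 h at 37 °C, Tomato+ cells were sorted, and single cells were picked under a fluorescence microscope, each becoming 1 sample. The labels name no animal, no untreated group and no second tissue, so the 15 cells form 1 group with an unknown number of mice and count as 1 sample. The cells were chosen by their measured values of the 18 genes. No p-value was therefore computed, and every difference below describes these 10 cells. The reporter marks cells in which Prrx1 was active when tamoxifen was given, and cells that had switched Prrx1 off afterwards stay marked.

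Adipocytes arise in the stroma of fat from fibroblast-like progenitors. Interstitial progenitors carrying Dpp4 and Pi16 lie in the fibrous sheaths of the depot, and committed preadipocytes near vessels turn on the nuclear receptor Pparg, lipid uptake genes such as Cd36 and Lpl, the fatty acid carrier Fabp4, and the basement membrane collagens that come to enclose the fat cell. Fibrillar matrix made by the progenitors is gradually replaced by this basement membrane during differentiation.

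Values are deposited FPKM on a log2(FPKM + 1) scale that had been brought to the same distribution in every cell. A difference of 2 on this scale is a 4-fold difference of FPKM + 1, and it understates the change of low genes. Detection means at least 1 FPKM, a value of 1 on this scale. The common distribution puts 4369 of the 8446 rows at or above that value in each cell, so the number of detected genes says nothing about a cell, and read depth is unknown. Rows sitting at the lowest value of their cell numbered 1182 to 1576 in the high cells, 930 to 1877 in the middle cells and 1059 to 1974 in the low cells. The sets overlapped in this measure of breadth, but low cells 9, 11 and 1 (1645, 1974 and 1859) lay above every high cell. A single-cell value near 0 can be a transcript that was missed. Throughout, 5 values in a row follow the order of the score: cells 6, 12, 15, 4 and 3 for the high set, 14, 5, 13, 10 and 8 for the middle set, and 2, 7, 9, 11 and 1 for the low set.

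The mean of the 18 genes was 7.22, 6.48, 6.25, 6.19 and 5.91 in the high cells and 3.97, 3.62, 3.55, 3.26 and 3.05 in the low cells. Just outside the sets lay cell 14 with 5.44 below cell 3, and cell 8 with 4.33 above cell 2. Between 15 and 18 of the 18 genes were detected in each high cell, 11 to 17 in each middle cell and 11 to 13 in each low cell. These values chose the cells and are a description only. Of the 18 genes, 13 differed by 2 or more in favour of the high cells, none did so in the other direction, and 4 had no overlap between the sets. The map of the 18 genes by cell shows lipid and basement membrane genes among those with large differences.

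**Figure D1:**
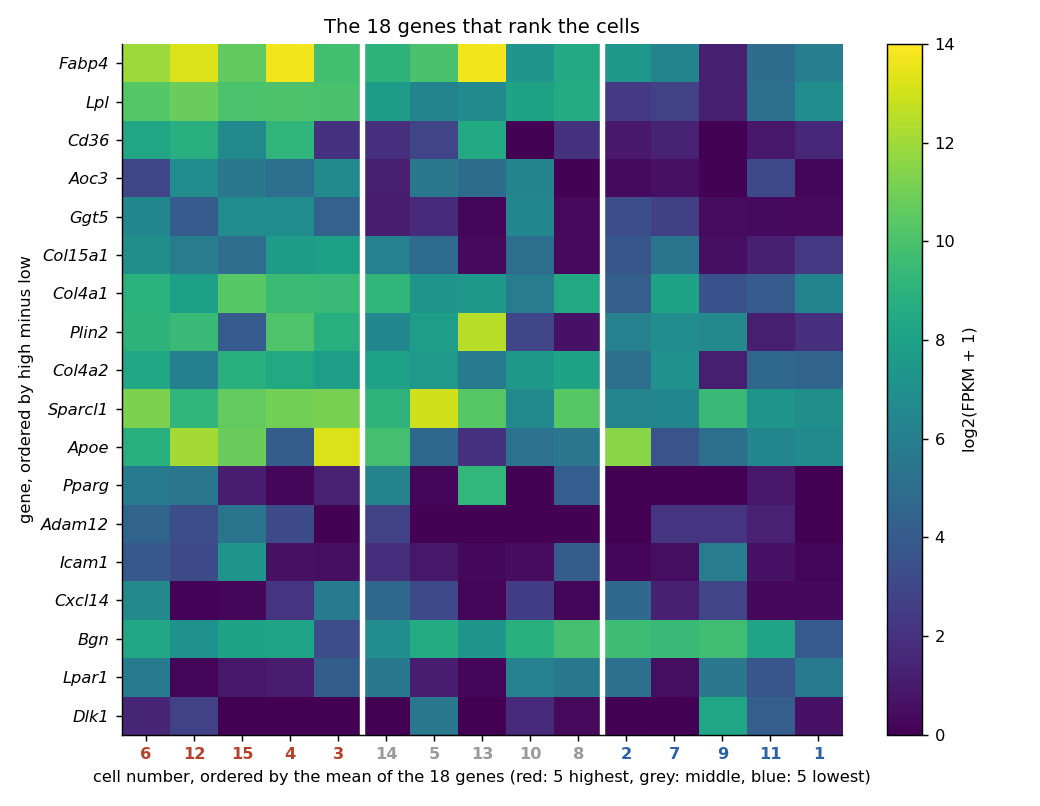
Heat map of the 18 genes that rank the cells, with 1 column per cell ordered by the mean of the 18 genes and 1 row per gene ordered by its difference between the sets; colour is log2(FPKM + 1). Fabp4 and Lpl separate the 5 highest cells on the left from the 5 lowest on the right, while Bgn, Lpar1 and Dlk1 at the bottom do not.

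The largest differences among the 18 were those of the lipid genes Fabp4, Lpl and Cd36. Fabp4, whose product carries fatty acids inside fat cells, measured 11.96, 13.26, 10.60, 13.69 and 9.74 in the high cells and 7.46, 6.29, 1.24, 4.95 and 6.00 in the low cells. The value of 13.69 is the top of the common scale. Lpl, which encodes lipoprotein lipase, was 10.30, 10.81, 10.05, 10.08 and 9.98 in the high and 2.30, 2.78, 1.19, 5.13 and 6.85 in the low cells, and no low cell reached the lowest high cell. Cd36, a fatty acid importer, was detected in all 5 high cells and in 2 low cells, with means of 6.97 and 0.97. Plin2, which coats small lipid droplets, had means of 8.30 and 4.54, and was highest of all in cell 13 of the middle set (12.47). Pparg, the nuclear receptor that drives fat cell formation, measured 5.78, 5.50, 1.07, 0.20 and 1.29 in the high cells, below 1 FPKM in all 5 low cells, and highest in cell 13 (9.29). Among the 5 highest-ranked cells it was thus above 2 in cells 6 and 12 only.

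All basement membrane collagens of the 18 were higher in the high cells. The type IV chain genes Col4a1 and Col4a2 differed by 4.0 and 3.43 between the sets, and Col15a1, another basement membrane collagen of fat, by 4.02. Col4a1 was 8.93, 7.91, 10.38, 9.56 and 9.49 in the high and 4.25, 8.06, 3.55, 4.09 and 6.33 in the low cells, with cells 12 and 7 overlapping. Col4a2 was 8.42, 6.07, 8.88, 8.49 and 7.85 and 5.07, 7.08, 1.16, 4.74 and 4.52. Their values ran together over the 15 cells (Pearson r = 0.85, Spearman rho = 0.88, a description over cells that share a normalization). The genes lie head to head on chromosome 8 of GRCm38 and are transcribed away from each other, so their promoter windows are shown as a pair that moves together. Each window of 300 bases, from RefSeq on GRCm38.p6, runs from 250 bases before to 50 bases from the start site, and the windows share 78 bases because the start sites are 21 bases apart. They are written 5′ to 3′ on the strand of each gene, and capitals mark the CCAAT box and the GC box GGGCGG, searched on both strands.
Col4a1, chr8:11312777-11313076, minus strand: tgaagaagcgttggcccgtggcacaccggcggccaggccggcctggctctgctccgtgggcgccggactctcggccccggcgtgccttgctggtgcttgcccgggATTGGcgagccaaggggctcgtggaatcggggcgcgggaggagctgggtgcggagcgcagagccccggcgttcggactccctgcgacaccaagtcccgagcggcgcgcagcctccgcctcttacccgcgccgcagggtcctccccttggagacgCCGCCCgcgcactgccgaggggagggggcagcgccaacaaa
Col4a2, chr8:11312555-11312854, plus strand: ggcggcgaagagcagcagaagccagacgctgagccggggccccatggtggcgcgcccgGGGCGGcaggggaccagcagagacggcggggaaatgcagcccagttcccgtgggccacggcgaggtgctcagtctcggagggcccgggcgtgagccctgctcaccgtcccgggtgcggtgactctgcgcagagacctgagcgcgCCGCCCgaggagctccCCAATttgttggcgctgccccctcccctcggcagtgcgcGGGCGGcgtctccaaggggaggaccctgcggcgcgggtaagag
The Col4a1 window holds 1 CCAAT and 1 GC box match at 74.0% G and C, and the Col4a2 window 1 and 3 at 73.7%, against a median of 52.7% over the 27025 symbols with a window. The GC box match of Col4a1 and the last one of Col4a2 are the same bases, read on opposite strands in the stretch that the windows share. Of all these symbols, 37.9% hold a CCAAT match and 35.9% a GC box match in their first window. Of the 18 genes 12 have a window, of which 4 hold CCAAT and 9 the GC box. A match is a run of letters and says nothing about binding in these cells.

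The other members of the 18 varied more. Ggt5, a gamma-glutamyltransferase of stromal cells, did not overlap between the sets (6.52, 4.07, 6.81, 6.79 and 4.38 against 3.35, 2.64, 0.46, 0.39 and 0.35). Aoc3, an amine oxidase of adipocytes and vessel walls, was detected in 5 high cells and 1 low cell, with means of 5.45 and 0.89. Sparcl1, a matricellular protein, had means of 10.65 and 7.30, and Apoe, the apolipoprotein, 9.83 and 6.66. The low cell 2 had Apoe at 11.53, above 3 of the high cells. Adam12, a metalloprotease, Icam1, the adhesion molecule that names this stage, and Cxcl14 differed by 2.17, 1.61 and 1.06, with wide overlap. The remaining members had higher means in the low cells, with overlap: the proteoglycan gene Bgn by 1.17, the lysophosphatidic acid receptor gene Lpar1 by 1.70, and Dlk1, which holds preadipocytes undifferentiated, by 1.80. Dlk1 was detected in only 2 cells of each set, and its mean in the low set came mainly from cells 9 (8.24) and 11 (4.25). The markers Fabp4, Lpl, Pparg, Col4a1 and Col15a1 are all among the 18, so their levels in the high cells were set by the choice of cells and do not test the name. Within the 18, Dlk1, Lpar1 and Bgn went the other way in their means, and Icam1 was detected in only 3 of 5 high cells.

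The ranking was also made from parts of the list, as a description, since all 18 genes were chosen with earlier results of these cells known. When the first 9 genes of the list picked the sets, they shared 4 high and 5 low cells with the sets above. The other 9 genes then had a mean of 5.75 in the high and 4.02 in the low cells, a difference of 1.73 with ranges of 4.21 to 7.10 and 2.93 to 5.26 that overlapped. When the last 9 genes picked the sets, 5 high and 3 low cells were shared. The first 9 genes then had means of 6.63 and 4.09, a difference of 2.54 with ranges of 5.43 to 7.33 and 2.99 to 5.78. The sets overlapped in both cases, and most of the cells were those of the sets above. Cell 13 lay among the highest by the first 9 genes and among the lowest by the last 9, so its place depends on which genes are read.

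Over the 7407 rows outside the 18 that were detected in at least 3 of the 15 cells, 567 (7.65%) were higher by 2 or more in the high cells and 584 (7.88%) were lower by 2 or more, with a median difference of −0.0032. Sets that did not overlap were rarer: 57 rows (0.77%) had all high cells above all low cells and 47 (0.635%) the reverse. Both conditions held for 45 rows (0.608%) in the higher and 37 (0.5%) in the lower direction. Of the 45, 9 were rows of near-identical copies of the small nucleolar RNA U3, which the counting may not separate. Detection in all 15 cells held for 3 of the 45 and 5 of the 37, and in 27 of the 45 and 27 of the 37 the median of the middle cells lay between those of the sets. Equal numbers in both directions depend on the scaling. With each cell centred on the median of 17 housekeeping genes, the median of all rows moved from −0.0032 to 0.64, and 1222 rows were higher against 254 lower, so that the higher ones made up 82.8% of these instead of 49.3%.

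Among genes outside the 18 that were higher without overlap, small RNAs left out, the largest difference was that of Enpp2, which encodes autotaxin, the secreted enzyme that makes lysophosphatidic acid (chromosome 15, 54838901 to 54952892, minus strand, GRCm38). It stood at 7.06, 9.04, 8.88, 7.88 and 8.08 in the high cells, at 6.80, 5.24, 0.42, 0.44 and 0.28 in the middle cells and at 0.96, 1.55, 0.34, 1.00 and 4.42 in the low cells. All high cells lay above 7, and among the low cells only cell 1 reached more than 2. The middle cells divided, with cells 14 and 5 a little below the high set and the other 3 below 1 FPKM. Adh1, an alcohol dehydrogenase that also oxidizes retinol (chromosome 3, 138260991 to 138290698, plus strand), was 9.84, 12.27, 10.16, 8.64 and 8.54 in the high and 6.80, 2.31, 1.80, 1.70 and 6.96 in the low cells, a difference of 5.97. It was detected in 14 of 15 cells and low cells 2 and 1 approached the high set. The eosinophil chemokine gene Ccl11 (chromosome 11, 82057823 to 82062955, plus strand) was 8.14, 9.45, 11.58, 10.54 and 10.50 in the high and 1.73, 7.34, 6.99, 2.11 and 7.95 in the low cells. Its lowest high cell, cell 6, lay just above low cell 1.

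Further genes of the 12 largest such differences encode membrane, secreted and mitochondrial proteins. Mme, the surface peptidase neprilysin, was 7.12, 5.40, 4.94, 3.11 and 6.44 in the high cells and 0.33, 2.83, 0.12, 0.24 and 0.59 in the low cells, and was detected in 5 and 1 of them. Bmper, which binds bone morphogenetic proteins, was 6.51, 6.50, 8.07, 7.10 and 7.58 against 0.71, 4.71, 0.63, 3.75 and 4.99. Thsd7a, a membrane protein with thrombospondin domains, was below 1 FPKM in all 5 low cells and ranged from 1.32 to 8.09 in the high cells. Tspan7, a tetraspanin, was likewise undetected in the low cells, and its high cells ranged from 2.88 to 6.30. Slc25a1, the mitochondrial citrate carrier that supplies carbon for fatty acid synthesis, was 6.95, 5.41, 5.04, 6.37 and 5.62 in the high and 2.57, 0.24, 2.98, 0.30 and 0.33 in the low cells. Prdx3, the mitochondrial peroxiredoxin, was 6.06, 7.52, 7.15, 6.67 and 5.69 and 0.90, 5.09, 0.27, 0.57 and 0.79, with low cell 7 close to the high set. Zeb2, a zinc finger repressor, was detected in all 15 cells and differed by 4.07. Its values may include reads of Zeb2os on the opposite strand, since the strand setting of the counting is not stated. Fcor, a small corepressor of Foxo1 in adipocytes, was high in cells 12 and 3 (9.84 and 9.11) and between 2.46 and 3.54 in the other high cells, against at most 2.42 in the low cells. The nuclear poly(A)-binding protein gene Pabpn1 completed the 12 with a difference of 5.20.

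**Figure D2:**
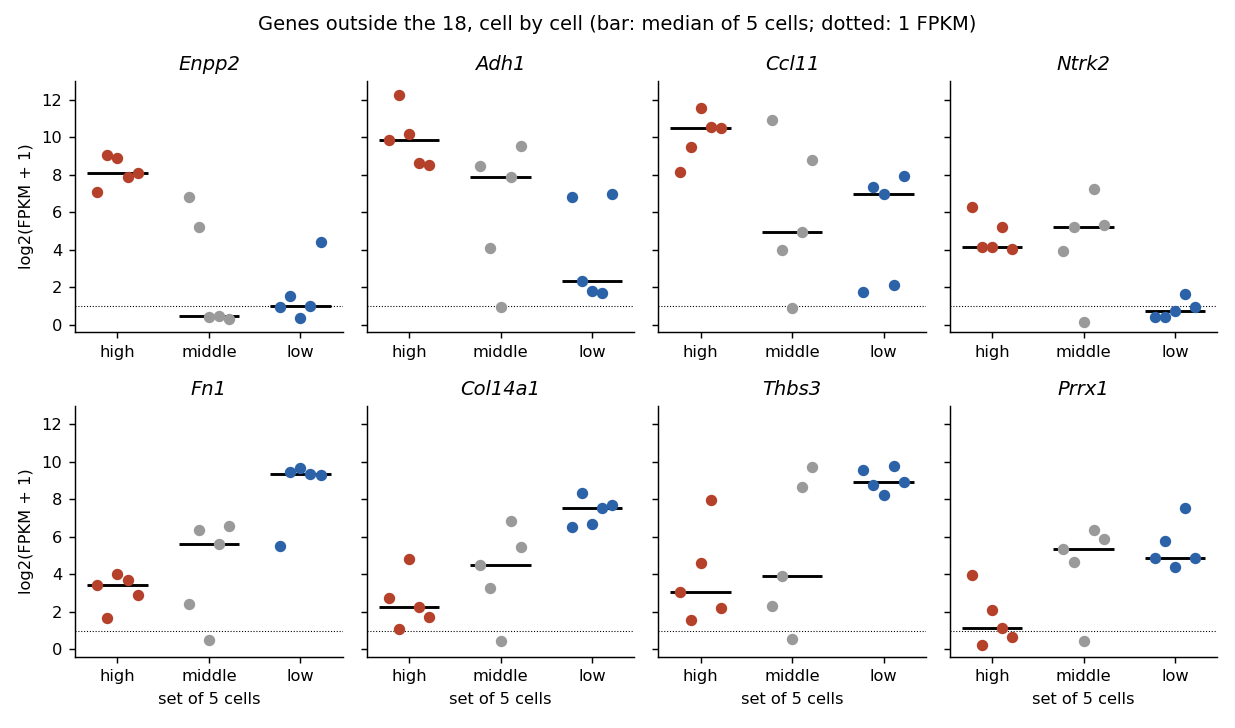
Dot plots of 8 genes outside the 18, with 1 dot per cell on a log2(FPKM + 1) axis for the high, middle and low sets of 5 cells; bars are medians of 5 cells and the dotted line is 1 FPKM. All high cells lie above all low cells for Enpp2, Adh1, Ccl11 and Ntrk2 and below them for Fn1, Col14a1, Thbs3 and Prrx1, while the middle cells spread across both.

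In the lower direction, 3 of the 12 largest differences without overlap were those of matrix genes. Fn1, which encodes fibronectin (chromosome 1, 71585520 to 71653200, minus strand), was 3.44, 1.67, 4.01, 3.68 and 2.88 in the high cells, 2.42, 6.38, 0.50, 5.63 and 6.57 in the middle cells and 5.54, 9.47, 9.65, 9.35 and 9.31 in the low cells. In the low set 4 cells lay between 9.31 and 9.65, and cell 2 was the exception. Col14a1, a collagen that sits on fibril surfaces (chromosome 15, 55307750 to 55520803, plus strand), was 2.72, 1.06, 4.84, 2.28 and 1.73 against 6.55, 8.36, 6.66, 7.53 and 7.71. Thbs3, a thrombospondin, was 3.08, 1.56, 4.61, 7.96 and 2.20 against 9.56, 8.78, 8.22, 9.78 and 8.92, with high cell 4 just below low cell 9. Thbs3 overlaps Mtx1 on the opposite strand, so that its value is uncertain. The other genes of the 12 were not matrix genes. Dguok, the mitochondrial deoxyguanosine kinase, had the largest difference, with 1.01, 2.20, 0.58, 0.41 and 0.52 in the high and 6.82, 7.08, 7.65, 7.75 and 8.80 in the low cells. Ap1m1, a subunit of the clathrin adaptor AP-1, was below 1 FPKM in all high cells and 5.28, 4.73, 5.90, 6.35 and 6.05 in the low cells. Arpc1a, a subunit of the Arp2/3 actin nucleator, differed by −4.78, the lysosomal membrane protein gene Laptm4b by −4.61, the helicase gene Fbxo18 by −4.42 and Unc50 by −4.37. Fam89b differed by −4.93, and Abhd14a, which overlaps Abhd14b, by −4.77. R3hcc1 was at 0.00 in low cell 1 as in all high cells, and counts as not overlapping only because the lowest value of cell 1 is slightly above 0.

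Genes of the fibrillar collagen and matrix list were mostly lower in the high cells. Of its 55 genes 52 had a row and 49 were compared: 16 were lower and 3 higher by 2 or more, against 7.88% and 7.65% of all rows, and the median difference was −1.03 against −0.0032. Besides Fn1 and Col14a1, the sets did not overlap for Col1a2, a chain of type I collagen, which was 10.64, 8.69, 10.46, 10.26 and 9.03 in the high and 12.27, 11.40, 11.05, 12.56 and 10.70 in the low cells. Col1a1, the other chain, had means of 6.94 and 9.14, and Col3a1 of 10.89 and 12.18, a difference under 2. The microfibril genes Mfap5 and Fbn1 differed by −3.83 and −2.49, and the collagen hydroxylase genes P4ha1 and P4ha2 by −3.49 and −3.44. Emilin1, an elastic fibre protein, Postn, periostin, and Vcan, versican, differed by −4.47, −4.14 and −3.51.

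Not all matrix genes followed. Thbs1 and Thbs2, which encode secreted thrombospondins, and Col5a3, a type V collagen chain, were higher in the high cells by 2.13, 2.49 and 2.45. The type VI collagen genes Col6a1, Col6a2 and Col6a3 were higher by 0.62, 1.6 and 1.44, under the difference of 2. The mean of the list in a cell was 4.24 to 5.75 in the high cells, 3.18 to 6.00 in the middle cells and 5.53 to 6.73 in the low cells. High cell 4 lay above low cell 2, so the sets overlapped in this mean. Cell 13, in the middle of the ranking, had the lowest mean of all. Over the 15 cells the mean had Spearman rho = −0.61 and Pearson r = −0.50 with the 18-gene mean, as a description. With cells centred on housekeeping genes the median difference of the list was −0.38 where that of all rows was 0.64.

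The Dpp4 progenitor list was also lower in the high cells. Of 29 genes compared, 11 were lower by 2 or more and none was higher by as much, against 7.88% and 7.65% of all rows. The median difference was −1.32, and 4 measured genes of the list, among them Fn1, Mfap5 and Fbn1, are also in the matrix list. That this list goes against the preadipocyte genes was known from earlier results on these cells and is no independent evidence. Dpp4 itself, the surface peptidase of interstitial progenitors, was 0.86, 0.00, 0.08, 0.38 and 2.24 in the high and 0.19, 6.87, 0.45, 1.62 and 7.93 in the low cells. It was high in low cells 7 and 1 only, so that 3 of the low cells were not marked by it. Tmem100 was 2.78, 0.92, 2.90, 2.72 and 5.41 in the high and 7.35, 5.35, 7.11, 6.52 and 8.35 in the low cells, and high cell 3 lay just above low cell 7. Tppp3, a microtubule-binding protein of progenitor cells, had means of 4.90 and 8.80. Creb5, a transcription factor, and Ugdh, the enzyme that makes the sugar precursor of hyaluronan, differed by −3.34 and −2.66. Anxa3 was close in the means, at 7.03 and 7.04, and Igfbp5, a binding protein of insulin-like growth factors, was higher in the high cells by 1.58. The mean of the list was 2.39 to 4.13 in the high and 3.23 to 7.07 in the low cells, so the sets overlapped. Only low cells 7 (5.32) and 1 (7.07) stood clearly above the high cells. Low cells 2, 9 and 11 were at 4.05, 3.23 and 4.20.

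**Figure D3:**
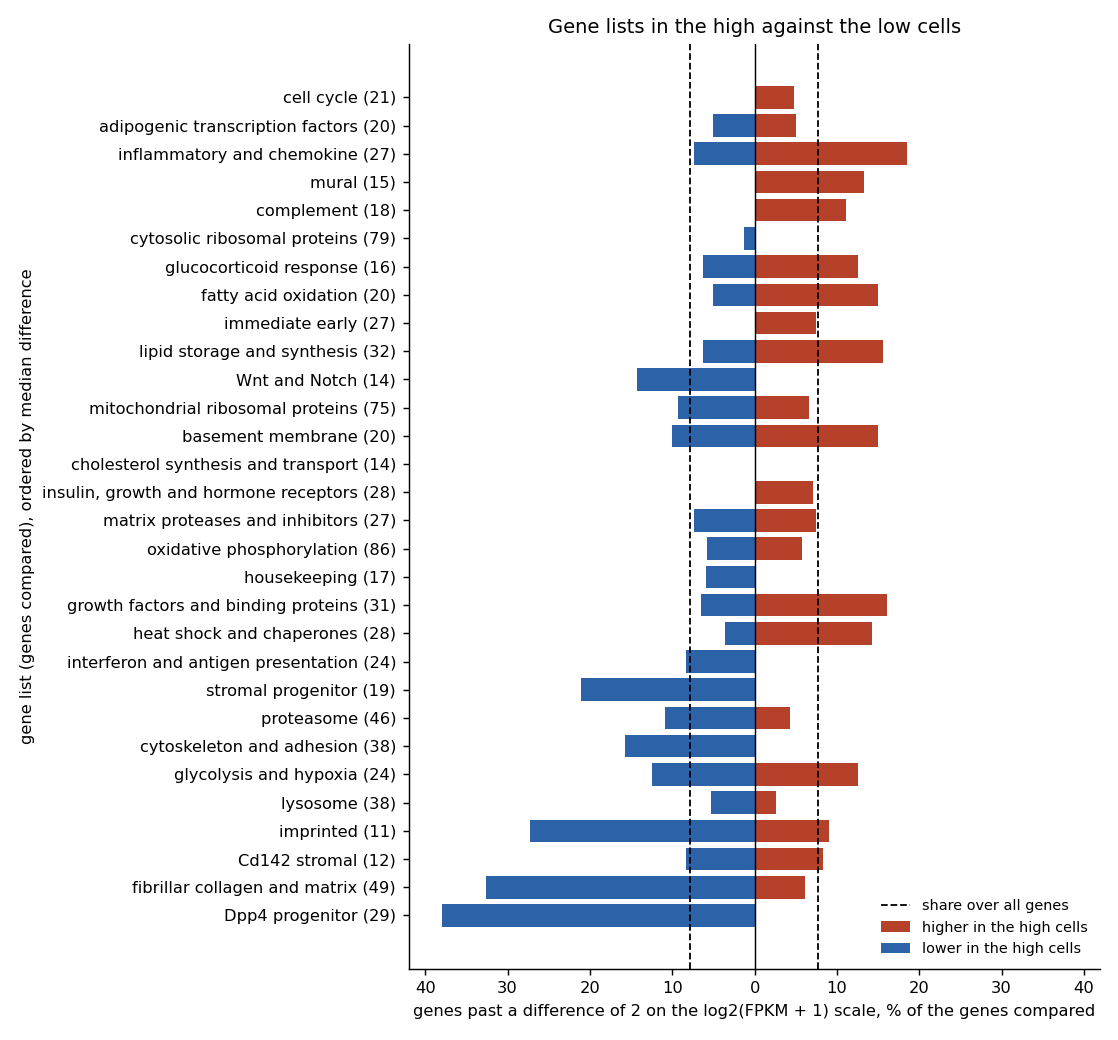
Bar chart of gene lists with at least 10 genes compared, each bar giving the share of its genes past a difference of 2 in log2(FPKM + 1), to the right where higher and to the left where lower in the 5 high cells; dashed lines are the shares over all rows, 7.65% and 7.88%. The Dpp4 progenitor list (11 of 29 genes lower) and the fibrillar collagen and matrix list (16 of 49) reach farthest to the left.

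Prrx1, the gene whose promoter drives the Cre in these mice, was lower in the high cells (chromosome 1, 163245119 to 163313710, minus strand). It stood at 3.97, 0.22, 2.08, 1.12 and 0.68 in the high cells, 5.33, 4.65, 0.43, 6.37 and 5.90 in the middle cells and 4.85, 5.77, 4.39, 7.56 and 4.88 in the low cells. The sets did not overlap, and 2 of the 5 high cells were below 1 FPKM, whereas all low cells were above 4. Middle cell 13 was as low as the high cells (0.43). Its paralogue Prrx2 overlapped, with 9.29, 7.57, 3.75, 2.35 and 0.00 in the high and 1.14, 2.02, 3.23, 7.12 and 5.29 in the low cells. Over the 15 cells Prrx1 had Spearman rho = −0.65 and Pearson r = −0.65 with the 18-gene mean, as a description. The difference of −3.88 remained negative in all 31 alternative settings, of which 14 used the same 10 cells, which is no sign of stability, and the sets overlapped in 5 of the 31. These included ranking without the lipid genes (−3.30), 7 cells a set (−3.10) and ranking without cells 4 and 12 (−2.15).

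**Figure D4:**
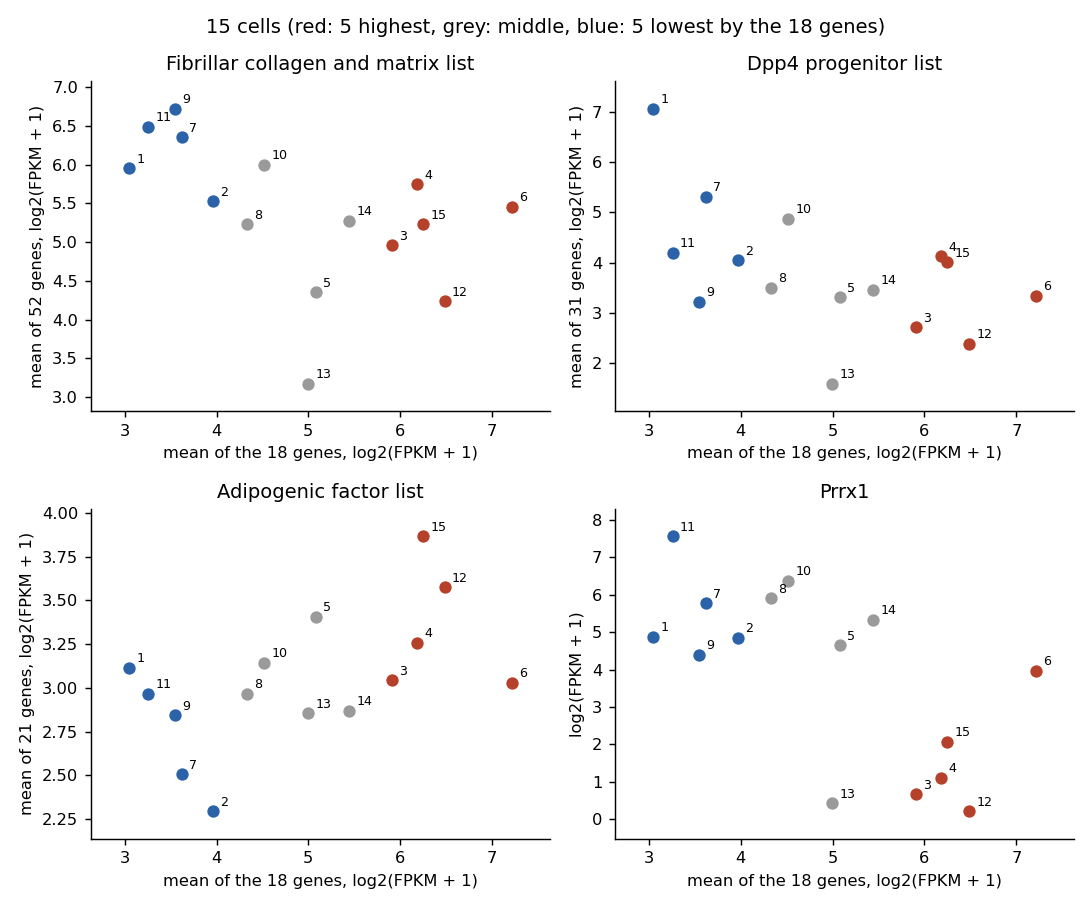
Scatter plots of the 15 cells, numbered, with the mean of the 18 genes on the x axis and, on the y axes, the means of the fibrillar collagen and matrix, Dpp4 progenitor and adipogenic factor lists and the value of Prrx1, all in log2(FPKM + 1). The low cells, in blue, tend to lie high for the matrix list and for Prrx1. For the Dpp4 list only low cells 7 and 1 lie clearly above the high cells. Cell 13 lies low in all 3 of these panels although it is in the middle of the ranking.

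The adipogenic transcription factors apart from Pparg were mostly slightly higher in the high cells. Of 20 compared, 15 had a positive difference and the median was 0.77, against −0.0032 over all rows. But only Nr1h3 was higher by 2 or more, and only Klf4, an early factor of differentiation, was lower by as much. Of all rows 7.65% were higher and 7.88% lower by 2 or more, so neither count is above the background. Nr1h3 encodes the sterol-sensing liver X receptor alpha and was 0.00, 5.81, 1.89, 7.33 and 6.56 in the high and 0.20, 0.11, 0.23, 0.93 and 5.52 in the low cells, with its highest value in middle cell 13 (9.65). Cebpb and Cebpd, which act early in adipogenesis, differed by 0.51 and −0.32. Ebf1 and Nfib, factors of the fat lineage, differed by 1.11 and 1.67. Rxra, the partner receptor of Pparg, had means of 1.30 and 0.03. The mean of the list was 3.03 to 3.87 in the high and 2.30 to 3.12 in the low cells.

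Lipid storage and synthesis genes outside the 18 were divided. Of 32 compared, 5 were higher and 2 lower by 2 or more, beside 7.65% and 7.88% of all rows, and the median difference was 0.22. The count of lower genes is near that background. Retsat, a retinol saturase of adipocytes, was high in cells 6, 12 and 3 (8.86, 7.49 and 8.0) and below 1 FPKM in the other high cells. G0s2, an inhibitor of the lipase Pnpla2, was 7.83, 8.6, 3.94, 2.45 and 1.58 in the high and 4.99, 0.58, 0.49, 1.40 and 1.36 in the low cells, and high again in middle cells 14, 5 and 13. Rbp4, the retinol carrier, Hilpda, a droplet protein, and Angptl4, an inhibitor of Lpl, differed by 2.83, 2.32 and 2.06. Vldlr, a lipoprotein receptor, and Mgll, the monoglyceride lipase, differed by −2.59 and −2.52.

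Of 14 genes in the mature adipocyte list 6 had a row, of which 5 were higher and 1 lower in the high cells by any amount. Car3, a carbonic anhydrase abundant in fat cells, was the 1 higher by 2 or more, at 0.18, 12.98, 6.71, 6.45 and 0.55 in the high and 5.27, 0.30, 0.00, 5.17 and 1.02 in the low cells. Acaca, the first enzyme of fatty acid synthesis, had no overlap in the lower direction with means of only 0.17 and 1.5. Cfd, the adipocyte protease adipsin, was detected in high cells 15 and 4 (2.38 and 6.65) and in no low cell. The mean of the mature adipocyte list was 0.30 to 5.25 in the high and 0.50 to 1.47 in the low cells. Its highest value was that of cell 12. In fatty acid oxidation 3 of 20 genes were higher and 1 lower by 2 or more, against 7.65% and 7.88% of all rows. Eci1, an enzyme of fatty acid breakdown, differed by 3.75, Hadhb, a subunit of the trifunctional protein, by −3.12, and Etfb, an electron carrier, had no overlap at a difference of 1.95. Cholesterol synthesis and transport had 0 of 14 genes past the difference in either direction.

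Basement membrane genes other than those in the 18 went both ways. Of 20 compared, 3 were higher and 2 lower by 2 or more, against 7.65% and 7.88% of all rows, and the median difference was 0.09. Counts this small are near the background in both directions. The heparan sulfate proteoglycan genes Agrn and Hspg2, for agrin and perlecan, and the laminin gene Lamb1 were higher by 2.69, 2.21 and 2.56. Lamb1 was 4.30, 8.16, 5.75, 5.93 and 5.68 in the high and 2.57, 4.31, 5.22, 4.08 and 0.83 in the low cells, with high cell 6 below low cell 9. Nid1, nidogen, and Lama4, another laminin, differed by 1.05 and 0.87. Fbln1, a fibulin, and Itgb1, the integrin beta 1 chain, differed by −2.42 and −2.34. Fbln1 is also in the matrix list and Itgb1 in the stromal progenitor list. Timp3, a matrix-bound protease inhibitor, had the largest difference of the protease list at 3.39, and was low in high cell 12 (1.21).

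Several chemokine genes were higher in the high cells beside Ccl11. Of 27 genes compared in the inflammatory and chemokine list, 5 were higher and 2 lower by 2 or more, where all rows had 7.65% and 7.88%, and the median difference was 0.64. Cxcl13, a chemokine for B cells, was 4.83, 8.05, 12.09, 8.75 and 13.69 in the high and 4.35, 7.91, 1.64, 1.36 and 8.48 in the low cells. It overlapped because of low cell values up to 8.48. Cxcl10, an interferon-induced chemokine, Ptges, a prostaglandin E synthase, and Ccl19, a lymphocyte chemokine, differed by 3.29, 2.72 and 2.09. Ccl8 went the other way, at 3.90, 0.00, 4.15, 3.65 and 3.18 in the high and 6.89, 12.27, 1.71, 8.22 and 9.86 in the low cells, as did Tnfaip6, a hyaluronan-binding protein (−2.97). When the sets were formed without cells 1, 11 and 14, the median of the list was −0.52, so its direction changed with those cells left out and cells 10 and 8 taken in. Of the complement list 2 of 18 were higher and 0 lower by 2 or more, where all rows had 7.65% and 7.88%. A count of 2 is near the background. These were C4a and C4b, near-identical copies that the counting may not separate, with differences of 2.59 and 2.55.

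Of 28 receptor genes compared, 2 were higher and 0 lower by 2 or more, against 7.65% and 7.88% of all rows. The median difference was 0.07, and neither count is above the background. Receptors and growth factors gave 1 gene without overlap, where 0.77% of all rows were higher and 0.635% lower without overlap. A count of 1 is near that background. The gene was Ntrk2, the receptor of brain-derived neurotrophic factor. It was 6.25, 4.17, 4.15, 5.22 and 4.06 in the high and 0.41, 0.42, 0.72, 1.65 and 0.95 in the low cells, and 3.92, 5.23, 0.14, 7.25 and 5.34 in the middle cells, of which cells 5 and 8 lay within the range of the high set, cell 10 above it, cell 14 just below it and cell 13 below 1 FPKM. Of 31 growth factor and binding protein genes compared, 5 were higher and 2 lower by 2 or more, against 7.65% and 7.88% of all rows, so that the lower count is near the background. Fgf10, a growth factor of the fat lineage, was 5.12, 6.21, 4.88, 0.00 and 3.14 in the high cells and below 1 FPKM in all low cells. Kitl, the ligand of Kit, was 4.83, 1.25, 4.37, 3.83 and 3.70 and 0.25, 0.17, 0.42, 0.00 and 2.21. Fst, the activin antagonist follistatin, and Gas6, the ligand of Axl, differed by 2.62 and 2.53, and Ctgf, a matrix-inducing factor, by −2.18. Ptn, pleiotrophin, differed by −2.31. Of the Wnt and Notch list, Sfrp2 and Sfrp4, which bind Wnt proteins, differed by −4.26 and −4.03 and no gene was higher by 2 or more among the 14 compared. As a whole the list went both ways, with 7 genes higher and 7 lower by any amount and a median difference of 0.14.

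Surface and cytoskeletal genes of the stroma were partly lower in the high cells. Of the stromal progenitor list 4 of 19 were lower and none was higher by 2 or more, against 7.88% and 7.65% of all rows. Of these 4, Col1a1 is also in the matrix list and Itgb1 in the basement membrane list, so the counts are not separate. Cd34, found on the surface of fat progenitors, measured 6.86, 2.05, 7.87, 8.92 and 5.34 in the high and 10.54, 8.92, 7.71, 9.01 and 10.15 in the low cells, and high cells 15 and 4 lay above the lowest low cell. Pdgfra, the receptor that marks fibroblastic progenitors, differed by 1.97 in the other direction, just under the limit. Of the cytoskeleton and adhesion list 6 of 38 were lower and none higher. Cnn3, the actin-binding calponin, was 7.15, 2.61, 3.47, 3.83 and 6.99 in the high and 8.73, 8.59, 10.22, 9.24 and 8.56 in the low cells, and Tagln2, transgelin 2, 4.42, 5.35, 5.05, 6.80 and 5.71 and 7.57, 8.37, 7.99, 7.92 and 8.95, both without overlap. With cells centred on housekeeping genes the medians of both lists turned from −0.28 to 0.37 and from −0.39 to 0.25. The median of all rows moved from −0.0032 to 0.64 with this centring, so both lists stayed below it.

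Mural genes, the markers of pericytes and smooth muscle, were mostly higher in the high cells. Of 15 compared, 2 were higher by 2 or more (Vtn by 3.36 and Steap4 by 2.87) and none was lower by as much. Of all rows 7.65% were higher and 7.88% lower by 2 or more, so these counts are near the background. A positive difference was found for 14 of the 15, and the median was 0.62 where that of all rows was −0.0032. Ranking by the last 9 genes, or without the lipid genes, turned the median of the mural list to −0.013. The mean of the list was 1.61 to 3.25 in the high, 1.22 to 6.35 in the middle and 1.06 to 1.79 in the low cells, and over the 15 cells it had Spearman rho = 0.61 and Pearson r = 0.32 with the 18-gene mean, as a description. Higd1b, a pericyte gene, did not overlap, at 2.46, 1.74, 2.18, 2.70 and 2.99 in the high and 0.78, 1.59, 0.00, 0.93 and 0.00 in the low cells. The defining members Rgs5, Kcnj8 and Acta2 had low levels in both sets, with means of 1.24, 0.56 and 2.05 in the high and 0.74, 0.20 and 1.54 in the low cells. Cells 5 and 13, which carry mural genes, were both in the middle set, so the comparison holds neither. Of the endothelial list 5 of 19 genes had a row and 4 were compared, all 4 with a positive difference and none past 2, with means of 1.32 to 3.19 and 0.96 to 2.08 in the high and low cells. Plvap, a vessel gene, was 0.32, 7.10, 0.47, 6.86 and 5.56 in the high and 5.31, 0.54, 0.00, 4.59 and 0.27 in the low cells. Of the immune list 2 of 15 genes had a row. Csf1r, the macrophage receptor, was below 1 FPKM in all high cells and 6.39, 3.35, 0.00, 0.22 and 3.81 in the low cells. The Schwann list had 4 genes, with means of 2.80 to 3.69 and 2.28 to 5.53. The mesothelial, epithelial and skeletal muscle lists had no gene analysed here. The part of other cells in the differences above was not tested.

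The immediate early list, which responds to digestion, had 27 genes compared, 2 higher by 2 or more and a median difference of 0.29, with means of 4.41 to 6.69 in the high and 2.96 to 7.63 in the low cells. Of all rows 7.65% were higher and 7.88% lower by 2 or more, with a median of −0.0032, so a count of 2 is near the background. The cytosolic ribosomal protein genes had a median difference of 0.41, with 66 of 79 positive but none higher and 1 lower by 2 or more. Of 86 oxidative phosphorylation genes 5 were higher and 5 lower by 2 or more, shares no larger than those of all rows. Cox5a, a subunit of cytochrome oxidase, was 9.15, 9.25, 10.06, 7.33 and 8.39 in the high and 7.57, 8.86, 1.29, 1.58 and 1.03 in the low cells, where cells 2 and 7 were high and the others low. Of the cell cycle list 1 of 21 was higher by 2 or more, a share below that of all rows: Ccnd2, a G1 cyclin, at a difference of 2.01. In this list 16 of the 21 had a positive difference and the median was 0.85. Ranking by the last 9 genes, or without the lipid genes, turned that median to −1.02. Among housekeeping genes Hprt, a purine salvage enzyme, was lower by 2 or more (means 4.32 and 7.22), and the other 16 were not.

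Likeness among cells was similar within and across the sets. Over the 7407 rows the Spearman correlation between cells, across genes that are not independent replicates, had a median of 0.430 over the 10 pairs of high cells, with a range of 0.396 to 0.486. Over the 10 pairs of low cells it was 0.472, from 0.437 to 0.546. Between a high and a low cell it was 0.440 over 25 pairs, from 0.384 to 0.533, and over all 105 pairs 0.438. The median was higher among low than among high cells, but the ranges overlapped with each other and with that of the pairs across the sets. Among the high cells, cell 12 stood apart in the stromal genes, with Cd34 at 2.05, Cd9 at 1.89 and Prrx1 at 0.22, while it was highest in Adh1 and Lpl. It also had the highest mean of all cells in the mature adipocyte list (5.25) and in the lipid storage and synthesis list (3.83). In the other high cells the mature adipocyte mean was 0.30 to 2.30. Cell 12 was singled out after its values were seen.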

How the data were processed

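Each of the 15 samples is 1 cell. Per the labels' protocols, libraries came from Nextera XT after a SMART-Seq v4 3' DE kit. TopHat2, Cufflinks and GRCm38 are named in the submitters' processing notes, without versions. The authors deposited 1 table of 8446 rows. Its log2 scale was inferred: read as log2(FPKM + 1) the deposited values sum to 592948 FPKM per cell on average, read as natural logarithms to 12675749. Sorted columns differ by at most 0.0354 above 0.2, so they had been quantile-normalized. The 18 further columns are empty.

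Differences are the mean of 5 high minus the mean of 5 low cells (Python 3.11.15, pandas 2.3.3, numpy 2.4.6), for rows detected at 1 FPKM in at least 3 of 15 cells; 1021 rows were left out. No label names animals, so no test was made. Only the arithmetic of the contrast was checked, on shuffled values with large known shifts added, which is no support for the differences reported.

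The 18 genes, the 40 gene lists (37 with a row) and the settings were chosen with earlier results of these data known. Named genes are the 18, Prrx1 and Prrx2, the 12 largest differences in each direction among rows past a difference of 2 without overlap and detected in at least 5 cells (small RNA, predicted, pseudogene and ribosomal rows left out), and per list the members meeting both conditions and the 2 largest. Further list members are named as examples, chosen after their values were seen. Of the identifiers 8431 matched a table of names, which restored 15 symbols turned into dates. Where a symbol has several rows, the highest was used.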

Additional observations from a re-analysis of the deposited data

How the results depend on the processing

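Counts of rows past the difference moved with how the comparison was defined. Sets of 3 cells gave 1003 higher, 1006 lower and 914 not overlapping (567, 584 and 104 with 5 cells), and sets of 7 cells gave 370 higher and 16 not overlapping. Rows detected in at least 8 cells gave 340 and 381, a pseudocount of 0.1 gave 1154 each way, and one of 5 gave 184 and 218. A difference of 1 gave 1725 and 1738, one of 3 gave 159 and 165, and medians over cells gave 1101 lower. Centring on housekeeping genes gave 1222 and 254. Leaving out 1 of the 10 cells gave 617 to 687 higher, 632 to 683 lower and 160 to 197 not overlapping; each cell left out raised the last count by over 1.5 times, since 4 cells overlap less easily than 5. With values under 1 FPKM set to 1 FPKM, a setting chosen after seeing the data, 78 rows did not overlap, all among the 104.

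The same 10 cells were used in 14 of the 31 alternatives. Ranking without the lipid genes, or by the last 9 genes, replaced 2 low cells by cells 8 and 13 and, among lists whose median was at least 0.5 in size, turned the cell cycle (−1.02), mural (−0.013) and imprinted (0.26) lists. Other lists of that size that turned were the bone, cartilage and marrow stroma list by the first 9 genes (−0.013), the Cd142 stromal list with 3 cells a set (0.039) or without cell 2 (0.39, with −1.44 to 0.39 over the cells left out), the imprinted list with centred cells (0.077), and the inflammatory list without cells 1, 11 and 14 (−0.52). With smaller medians included, 28 of the 37 lists turned in at least 1 alternative and 9 in none. The causes were not tested. The matrix list ranged from −1.55 to −0.38 and the Dpp4 list from −2.09 to −0.67. No paired analysis was possible because the labels give 1 group. Without read counts, the precision of low values is unknown.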
